A study of Mus musculus with 6 samples.

Results

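The circadian clock genes described here are the 9 rows of the deposited table named Arntl, Npas2, Per2, Per3, Ciart, Nr1d1, Nr1d2, Dbp and Tef, out of 12163 listed genes. They were picked by symbol, not by a cutoff on their values, but with earlier results of these data known. All 9 had a value of at least 10 in each of the 6 libraries. Total RNA of fat from C57BL/6 mice, wild type and of one inbred strain, was sequenced. One group of 3 libraries was made from the fat before grafting and the other group of 3 from fat collected 7 days after it was grafted, and the submitters call the 3 of a group biological replicates. Neither the fat depot, graft site, sex, age nor clock time of collection is labelled, so that time of day and group cannot be told apart for genes whose levels cycle. Listed genes took between 13027776 and 15924559 reads per library, as recovered by dividing the values by the smallest nonzero value of each library. These totals are not given by the submitters. Values are normalized read counts, meaning reads divided by 1 size factor for each library, with ± for the SD of 3 libraries.

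The mammalian circadian clock is a feedback loop of transcription that runs in nearly every tissue, fat included. BMAL1, the product of Arntl, pairs with CLOCK or NPAS2 and switches on genes through E-box sequences, among them the Per and Cry genes, whose proteins then block the pair. A second loop joins REV-ERB repressors (Nr1d1, Nr1d2) and ROR activators, which compete for the same DNA element and act on Arntl. The PAR bZIP activators DBP, TEF and HLF and the repressor NFIL3 compete for D-box sequences and pass the rhythm on to output genes.

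Because the clock factors act through short DNA words, the stretches around the start sites of the clock genes were read from the RefSeq promoter table (GRCm38.p6, 250 bases before to 50 bases after each start). Windows were matched by symbol for 8 of the 9 genes, all but Per2. The words searched on both strands were the E-box CACGTG, its variant CACGTT, the D-box TTATGTAA or TTACGTAA, and the ROR element ANTAGGTCA or ANTGGGTCA. The 5 windows below are shown because each holds a match, in capitals, and because their genes moved in different directions in the grafts. They are written 5′ to 3′ on the strand of the gene and lie at chr15:81802423-81802722 (plus) for Tef, chr3:95882179-95882478 (minus) for Ciart, chr4:151044616-151044915 (minus) for Per3, chr11:98775328-98775627 (minus) for Nr1d1 and chr7:113207261-113207560 (plus) for Arntl.
Tef: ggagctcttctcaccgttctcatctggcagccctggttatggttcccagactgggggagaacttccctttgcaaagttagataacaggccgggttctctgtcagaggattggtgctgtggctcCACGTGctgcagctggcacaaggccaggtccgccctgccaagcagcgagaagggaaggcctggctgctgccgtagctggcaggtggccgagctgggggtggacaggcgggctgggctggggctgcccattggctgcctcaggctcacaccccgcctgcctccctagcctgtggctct
Ciart: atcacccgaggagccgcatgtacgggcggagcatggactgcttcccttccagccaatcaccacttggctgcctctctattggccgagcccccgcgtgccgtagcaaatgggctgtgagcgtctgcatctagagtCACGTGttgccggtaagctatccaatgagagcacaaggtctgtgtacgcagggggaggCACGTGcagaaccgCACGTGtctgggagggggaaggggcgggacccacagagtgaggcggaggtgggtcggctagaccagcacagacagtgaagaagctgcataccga
Per3: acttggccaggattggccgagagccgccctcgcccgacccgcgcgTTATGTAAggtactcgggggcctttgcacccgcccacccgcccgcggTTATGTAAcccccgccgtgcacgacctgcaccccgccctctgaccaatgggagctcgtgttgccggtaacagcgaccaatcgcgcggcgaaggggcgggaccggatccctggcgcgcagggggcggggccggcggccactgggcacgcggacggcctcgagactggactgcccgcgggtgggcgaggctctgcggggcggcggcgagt
Nr1d1: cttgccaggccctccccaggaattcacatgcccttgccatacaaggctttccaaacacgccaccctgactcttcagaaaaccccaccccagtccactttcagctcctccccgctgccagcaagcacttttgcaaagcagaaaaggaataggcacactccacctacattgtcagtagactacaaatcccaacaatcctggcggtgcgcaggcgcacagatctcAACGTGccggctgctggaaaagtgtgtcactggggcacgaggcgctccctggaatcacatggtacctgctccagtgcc
Arntl: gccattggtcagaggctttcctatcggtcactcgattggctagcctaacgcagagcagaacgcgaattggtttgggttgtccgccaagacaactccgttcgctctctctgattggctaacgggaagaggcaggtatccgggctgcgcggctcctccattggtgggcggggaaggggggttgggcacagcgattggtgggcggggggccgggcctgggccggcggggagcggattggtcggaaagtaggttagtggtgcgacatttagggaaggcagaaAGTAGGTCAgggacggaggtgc

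The Ciart window held 3 E-boxes, which begin 116, 58 and 44 bases before the start, and the Tef window held 1, at 127 bases before it. The second Tef window of the table held an E-box too, 138 bases before its start. Per3 had 2 copies of the D-box word TTATGTAA, at 205 and 158 bases before the start. Nr1d1 had the E-box variant, read on the other strand as AACGTG, 28 bases before the start. In Arntl the word AGTAGGTCA, a match to the ROR element, began 28 bases after the start of the second of its 2 windows. No match overlapped another. The windows of Dbp, Nr1d2 and Npas2 and the other Arntl window held no match. Of the 8 genes with a window, 2 held an E-box, 1 the variant, 1 a D-box word and 1 a ROR element word. Across all 32851 windows of the table, 7.15% held an E-box, 4.68% the variant, 1.06% a D-box word and 1.45% a ROR element word. These matches describe the letters only, and no binding was measured here.

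In grafts, both Per genes and both PAR bZIP genes among the 9 fell 4.74- to 9.80-fold, Nr1d2 fell 1.67-fold, and Npas2 rose 14.5-fold. Arntl, Ciart and Nr1d1 were 1.54- to 2.39-fold higher. At a limma adjusted p under 0.05, 4 of the 9 were called higher and 5 lower, and in all 9 the values of the groups did not overlap. The deposited table appears limited to genes that differ between the groups, and 80.4% of its 10854 tested genes were called (41.3% higher, 39.2% lower) and 97.6% did not overlap. A count of 9 among 9 lies near that background and is not read as a result about clock genes. The median log2 fold change of the 9 was -0.74, against 0.28 over all tested genes. Nothing is read from that difference, since the 9 were picked with earlier results of these data known. Sizes differed more: 12.5% of tested genes changed by more than Per3, 10.5% by more than Npas2 and 76.9% by more than Nr1d1.

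The 5 falls and the rise of Npas2 were called in all 17 alternative fits that were run. The other 3 rises were less firm, and counting Npas2 only 2 of 4 rises passed when replicate 1 or 3 before grafting, or graft replicate 2 or 3, was left out. Library scaling moved them too. The median of all tested genes went from 0.28 to 0.17 with median ratios, 0.15 with equal listed totals, 0.075 with equal upper quartiles and -0.48 after holding 76 ribosomal protein genes at no change. Of all calls, 51.3% were higher as deposited, 40.8% with equal upper quartiles and 25.6% in the ribosomal scaling.

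**Figure D1:**
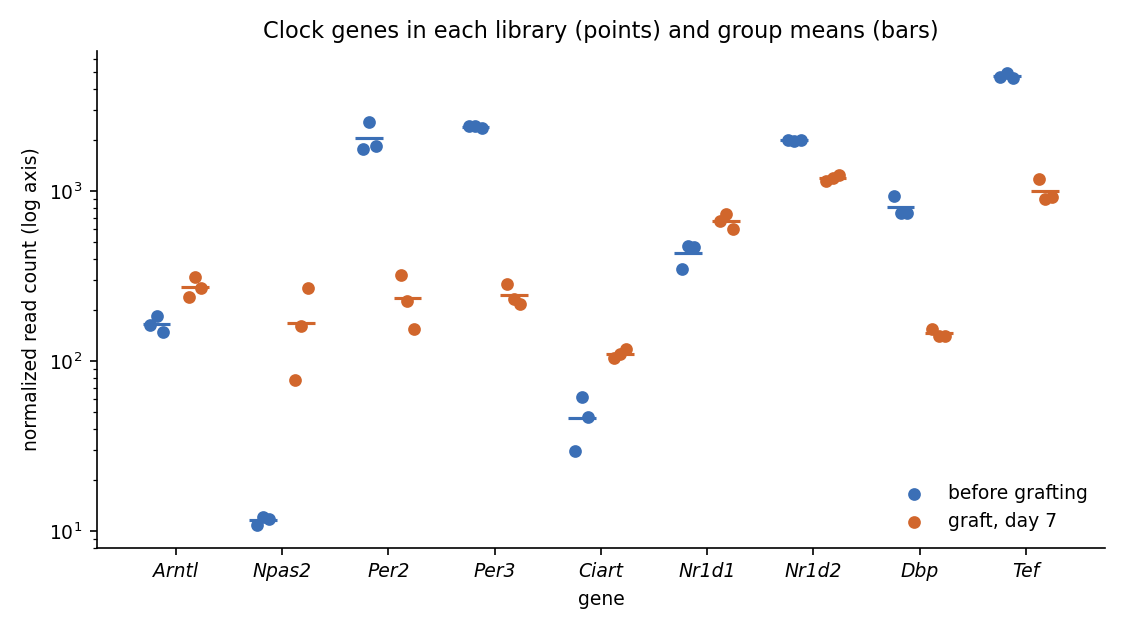
Normalized read counts (log axis) of the 9 clock genes in each of 3 libraries before grafting (blue) and 3 grafts at day 7 (orange), with the group mean as a bar. Per2, Per3, Nr1d2, Dbp and Tef lie lower in every graft, while Arntl, Npas2, Ciart and Nr1d1 lie higher as deposited (Arntl and Nr1d1 turn slightly negative in the ribosomal scaling), and Npas2 spreads from 77.3 to 268 among grafts.

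Arntl (chromosome 7, 113207465 to 113314126, GRCm38) encodes BMAL1, the activator on which the loop depends. It had 163, 185 and 149 normalized counts in the 3 libraries before grafting and 240.0, 313 and 270.0 in the grafts. Every graft was above every library before grafting. The means were 166 ± 18.6 and 274 ± 36.8, a log2 change of 0.72 (SE 0.17, adjusted p = 0.0183). It was 0.52 with equal upper quartiles (adjusted p = 0.0771) and -0.039 in the ribosomal scaling, and without replicate 1 or 3 before grafting or graft replicate 2 or 3 its adjusted p was 0.0556 to 0.0844.

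Npas2 (chromosome 1, 39193731 to 39363236) encodes a CLOCK-like partner of BMAL1. Before grafting it stood at 10.8, 12.2 and 11.8 normalized counts, close to the floor for testing. Grafts had 77.3, 161 and 268. The lowest graft was still far above every library before grafting, and the grafts differed among themselves 3.47-fold from lowest to highest, the widest spread of the 9 genes. Group means were 11.6 ± 0.678 and 169 ± 95.6, with a log2 change of 3.58 (SE 0.43, adjusted p = 0.000565). Within each library, the log2 ratio of Npas2 to Arntl went from -3.79, -3.82 and -3.55 before grafting to -1.62, -0.96 and -0.01 in grafts. A ratio of this kind does not depend on library scaling, apart from the 1 added to each value, which shrinks it for a gene near the floor. The scalings therefore do not test the direction, Npas2 rising relative to Arntl. Clock itself, the usual partner, is outside the table and was not analysed here.

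Per2 (chromosome 1, 91415982 to 91459324) and Per3 (chromosome 4, 151003652 to 151044665) encode PERIOD proteins, of the repressor arm. Per2 had 1764, 2556 and 1850.2 normalized counts before grafting and 323, 225 and 155 in grafts. Its means of 2057 ± 434 and 235 ± 84.5 gave a log2 change of -3.17 (SE 0.26, adjusted p = 7.69e-05). Per3 was nearly the same in the 3 libraries before grafting, at 2408, 2410.0 and 2369, and had 286, 232 and 216 in grafts. Its fall from 2396 ± 23.3 to 245 ± 37.0 was a log2 change of -3.30 (SE 0.12, adjusted p = 1.97e-06). Both Per genes fell by a similar amount, and the log2 ratio of Per2 to Per3 spanned -0.45 to 0.08 before grafting and -0.47 to 0.18 in grafts, ranges that overlap.

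Ciart (chromosome 3, 95878503 to 95882251) encodes CHRONO, a repressor that binds BMAL1. Libraries before grafting had 29.6, 61.8 and 47.2 normalized counts, and grafts had 104, 109.6 and 118. The libraries before grafting spread 2.09-fold, while the grafts lay within 1.13-fold of each other. Means of 46.2 ± 16.1 and 111 ± 6.69 gave a log2 change of 1.30 (SE 0.29, adjusted p = 0.0158). In the ribosomal scaling it was 0.55 (adjusted p = 0.723), and without replicate 3 before grafting or graft replicate 3 the adjusted p was 0.0541 and 0.0561. As deposited, Ciart was thus higher in grafts, where Per2 and Per3, also repressor genes, were lower.

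The REV-ERB genes parted. Nr1d1 (chromosome 11, 98767932 to 98775333), which encodes REV-ERB alpha, had 350.0, 477 and 470.2 normalized counts before grafting and 666, 735 and 596 in grafts, with means of 432 ± 71.5 and 666 ± 69.3. Its log2 fold change was 0.63 (SE 0.15, adjusted p = 0.0233), but -0.13 in the ribosomal scaling. The limma adjusted p was 0.0562 with median ratios, 0.137 with equal upper quartiles and 0.0616 with no mean trend. It was 0.0546 to 0.0950 without replicate 1 before grafting or graft replicate 1 or 2. Nr1d2 (chromosome 14, 18204054 to 18239127), which encodes REV-ERB beta, had 2011, 1963 and 2013 before grafting and 1141, 1189 and 1248 in grafts. Its means of 1996 ± 28.2 and 1193 ± 53.8 gave a log2 change of -0.74 (SE 0.085, adjusted p = 0.000414). The log2 ratio of Nr1d1 to Nr1d2 within a library was -2.52, -2.04 and -2.10 before grafting and -0.78, -0.69 and -1.06 in grafts. Nr1d1 therefore gained on Nr1d2 by 1.37 on the log2 scale. Apart from the 1 added to each value, library scaling cannot change such a ratio and does not test it.

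Part of the Nr1d1 reads cannot be assigned with certainty. Thra, the thyroid hormone receptor alpha gene, runs on the opposite strand and shares 263 of the 3077 exonic bases of Nr1d1, and strand use in counting is not given in the sources used here. Thra had a mean of 1132 normalized counts before grafting and 900.4 in grafts. The part of shared reads in the change of Nr1d1 was not tested.

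The output activators fell together. Dbp (chromosome 7, 45705088 to 45710203) had 939.7, 748 and 748 normalized counts before grafting and 156, 142 and 140.5 in grafts. With means of 812 ± 111 and 146 ± 8.47, its log2 fold change was -2.46 (SE 0.14, adjusted p = 1.06e-05). Tef (chromosome 15, 81802421 to 81826863) had 4705, 4936 and 4624 before grafting and 1178, 901 and 928 in grafts. That fall, from 4755 ± 162 to 1002 ± 153, was a log2 change of -2.26 (SE 0.12, adjusted p = 8.21e-06). The Dbp to Tef ratio stayed within overlapping ranges, -2.72 to -2.32 before grafting and -2.91 to -2.66 in grafts on the log2 scale. Sphk2, a sphingosine kinase gene on the opposite strand, shares 539 of the 2993 exonic bases of Dbp. Its mean was 457 before grafting and 872 in grafts. Part of the Dbp reads thus cannot be assigned with certainty either, and the part of shared reads in its change was not tested.

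**Figure D2:**
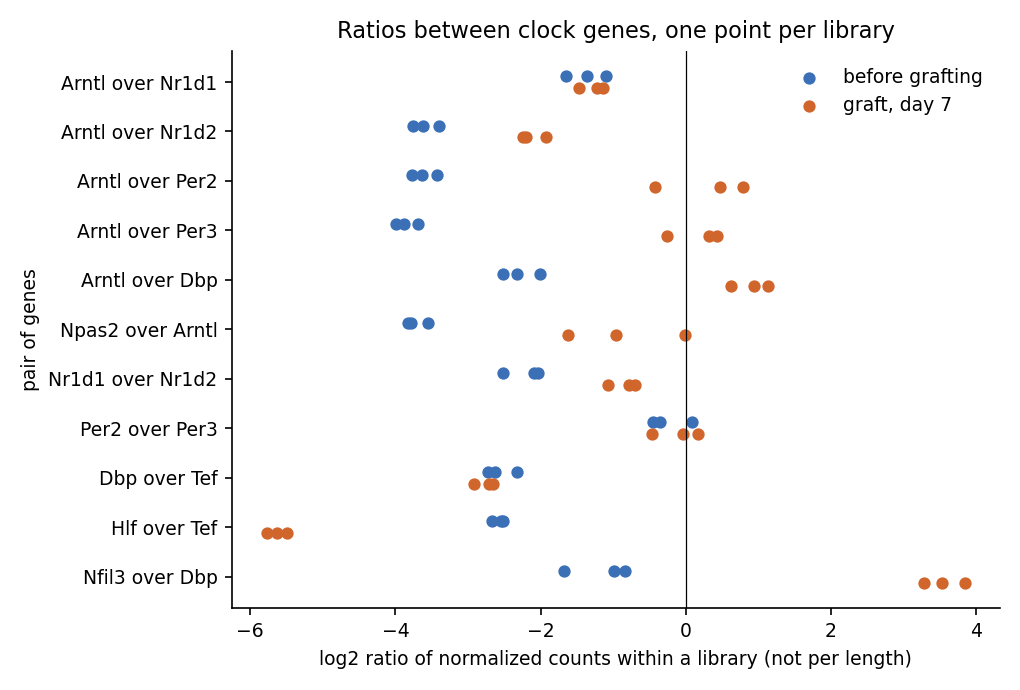
Log2 ratios of normalized counts between pairs of clock genes within each library (one point per library, blue before grafting, orange grafts, not divided by gene length). Arntl gained on Per2, Per3, Dbp and Nr1d2 but not on Nr1d1, and Nfil3 gained on Dbp, with no overlap between groups for those that gained.

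Apart from the 1 added to each value, ratios of the activator Arntl to other clock genes do not depend on library scaling. They hold the changes of both genes of a pair. Arntl stood below Per3 by 3.85 ± 0.148 on the log2 scale before grafting, when the mean log2 ratio was -3.85, and in grafts the mean ratio was 0.17 ± 0.368. For Per2 the mean ratio went from -3.61 ± 0.174 to 0.28 ± 0.634. Arntl over Dbp went from -2.28 ± 0.261 to 0.90 ± 0.261, and Arntl over Nr1d2 from -3.59 ± 0.179 to -2.12 ± 0.176. Arntl over Nr1d1, at -1.37 ± 0.278 and -1.28 ± 0.170, overlapped between the groups.

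Divided by exon length, the 9 genes spanned a 249.6-fold range of mean levels before grafting and an 8.66-fold range in grafts. The low end before grafting was Npas2 alone (2.42 per kb), close to the floor for testing. The next lowest gene was Ciart at 20.4. Before grafting Tef was highest at 604 ± 20.5 normalized counts per kb. Nr1d2 (369 ± 5.21), Per2 (351 ± 74.2), Dbp (271 ± 37.1) and Per3 (249 ± 2.43) followed, each overlapping the next in range. Nr1d1 came after them at 141 ± 23.2, then Arntl (22.0 ± 2.47) and Ciart (20.4 ± 7.13), which overlapped, and Npas2 at 2.42 ± 0.141. In grafts the REV-ERB genes led, with Nr1d2 at 220.5 ± 9.95 and Nr1d1 at 216 ± 22.5 per kb, which overlapped, ahead of Tef at 127 ± 19.4. The remaining 6 genes, from Ciart at 48.9 ± 2.96 through Dbp (48.7 ± 2.83), Per2 (40.1 ± 14.4), Arntl (36.5 ± 4.89) and Npas2 (35.2 ± 20.0) to Per3 at 25.5 ± 3.85, each overlapped its neighbour in that order.

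**Figure D3:**
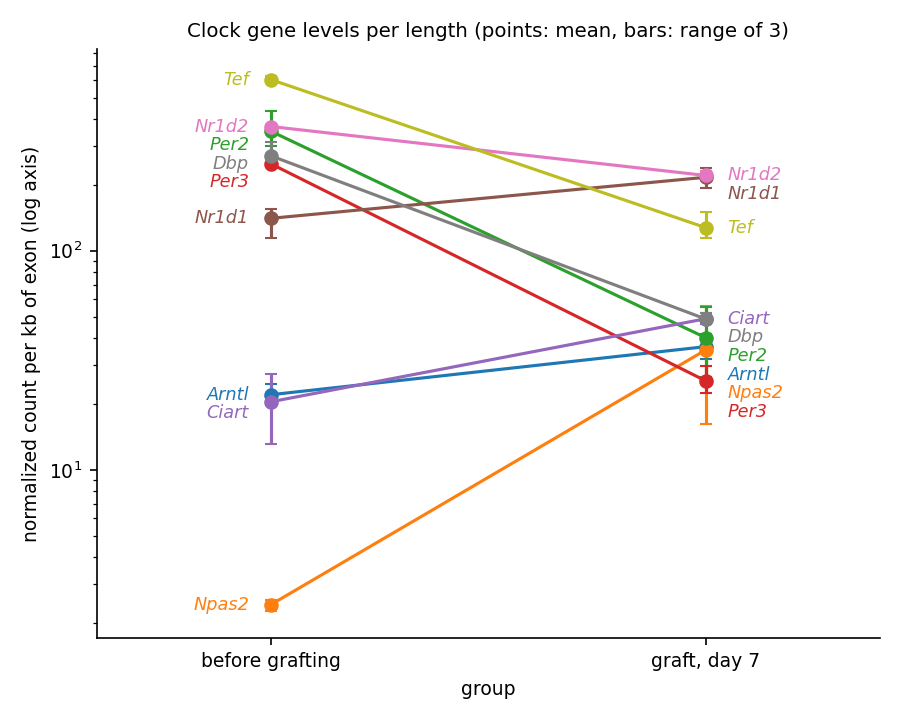
Normalized counts per kb of exon (log axis) of the 9 clock genes before grafting and in grafts at day 7, with the mean as a point and the range of 3 libraries as a bar. Levels spread from 2.42 (Npas2) to 604 (Tef) before grafting and from 25.5 (Per3) to 220.5 (Nr1d2) in grafts. Npas2 before grafting lay close to the floor for testing, and the next lowest gene was Ciart at 20.4.

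The wider clock was followed in a list of 21 other clock genes, of which 13 are in the table, all tested. Of these, 4 were called higher and 5 lower, and 4 were not called, against 80.4% called over all tested genes, and nothing is read from that share. Their median log2 fold change was -0.28, against 0.28 over all tested genes, for a list also chosen with earlier results known. Clock, Arntl2, Per1, Cry1, Timeless, Rorb, Csnk1e and Fbxl21 are outside the table and were not analysed here, which is not read as a result. Hlf, the third PAR bZIP activator, had 736, 861 and 791 normalized counts before grafting and 25.1, 15.5 and 17.8 in grafts. Its log2 fold change of -5.31 (SE 0.22, adjusted p = 2.89e-06) was deeper than that of its relatives, and the log2 ratio of Hlf to Tef went from -2.58 to -5.63. Nfil3, the repressor at the same D-boxes, rose from 364 ± 64.1 to 1737 ± 263, a log2 change of 2.26 (SE 0.16, adjusted p = 3.49e-05). Counted per kb, Nfil3 made up 12.4, 15.6 and 17.8% of the sum of Dbp, Tef, Hlf and Nfil3 before grafting and 78.6, 83.2 and 85.7% in grafts.

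Rora, which encodes a ROR activator, fell from 1161 ± 82.7 to 560 ± 69.9 (log2 fold change -1.06, adjusted p = 0.00039). Ncor1, the corepressor that REV-ERB proteins recruit, fell by 0.91 on the log2 scale (adjusted p = 0.000107). Hdac3, the deacetylase of that complex, had 1038 ± 38.7 and 832 ± 139 and was not called (log2 fold change -0.33, adjusted p = 0.182). It was called lower with equal upper quartiles (-0.54, adjusted p = 0.0258), in the ribosomal scaling (-1.10, adjusted p = 0.000259), with adjustment over tested genes only (adjusted p = 0.0356) and without graft replicate 1 (adjusted p = 0.0299). The cryptochrome gene Cry2 fell from 988 ± 177 to 312 ± 67.6 (log2 fold change -1.67, adjusted p = 0.000484), along with Per2 and Per3.

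Other E-box repressors were called higher as deposited, one of them less firmly. Bhlhe40, or DEC1, rose from 959 ± 187 to 3080 ± 606 (log2 fold change 1.68, adjusted p = 0.000313). Bhlhe41, or DEC2, went from 150.5 ± 14.6 to 300.2 ± 93.6 (log2 fold change 0.95, adjusted p = 0.0316), and its adjusted p was 0.0804 to 0.116 when any library but graft replicate 3 was left out. The Bhlhe41 call was also lost with median ratios (0.0579), equal listed totals (0.0566), equal upper quartiles (0.0913), the replicate block (0.0745) and no mean trend (0.0704, limma adjusted p in each), and its log2 fold change was 0.18 in the ribosomal scaling. Kinase and ubiquitin ligase genes that act on clock proteins differed by 0.55 or less on the log2 scale as deposited, and their calls depended on the setting. Fbxw11, which encodes a ubiquitin ligase adaptor, was called higher at 0.39 on the log2 scale as deposited but stood at -0.37 in the ribosomal scaling. Its call was also lost with the other 3 scalings, the replicate block, no mean trend, or without replicate 1 or 3 before grafting or graft replicate 1 or 2 (adjusted p from 0.0600 to 0.491). Another adaptor gene, Btrc, was called lower at -0.55, at -0.76 with equal upper quartiles and at -1.32 in the ribosomal scaling, but not without replicate 2 (adjusted p = 0.0606) or 3 (0.103) before grafting or graft replicate 1 (0.0585). The kinase genes Csnk1d (0.31), Gsk3b (0.24) and Csnk2a1 (-0.28) were not called as deposited. In the ribosomal scaling all 3 were called lower, at -0.46, -0.53 and -1.04 in that order (adjusted p = 0.0106, 0.0156 and 0.000134), and with adjustment over tested genes only all 3 passed in their deposited directions. Csnk2a1 was called lower also with median ratios (adjusted p = 0.0183), equal listed totals (0.029) and equal upper quartiles (0.00531). Bhlhe40 and Nfil3 were the rises, and Cry2, Rora, Ncor1 and Hlf the falls, that were called in every alternative run. Of the 4 rises, 2 or 3 were called when any library but graft replicate 3 was left out.

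**Figure D4:**
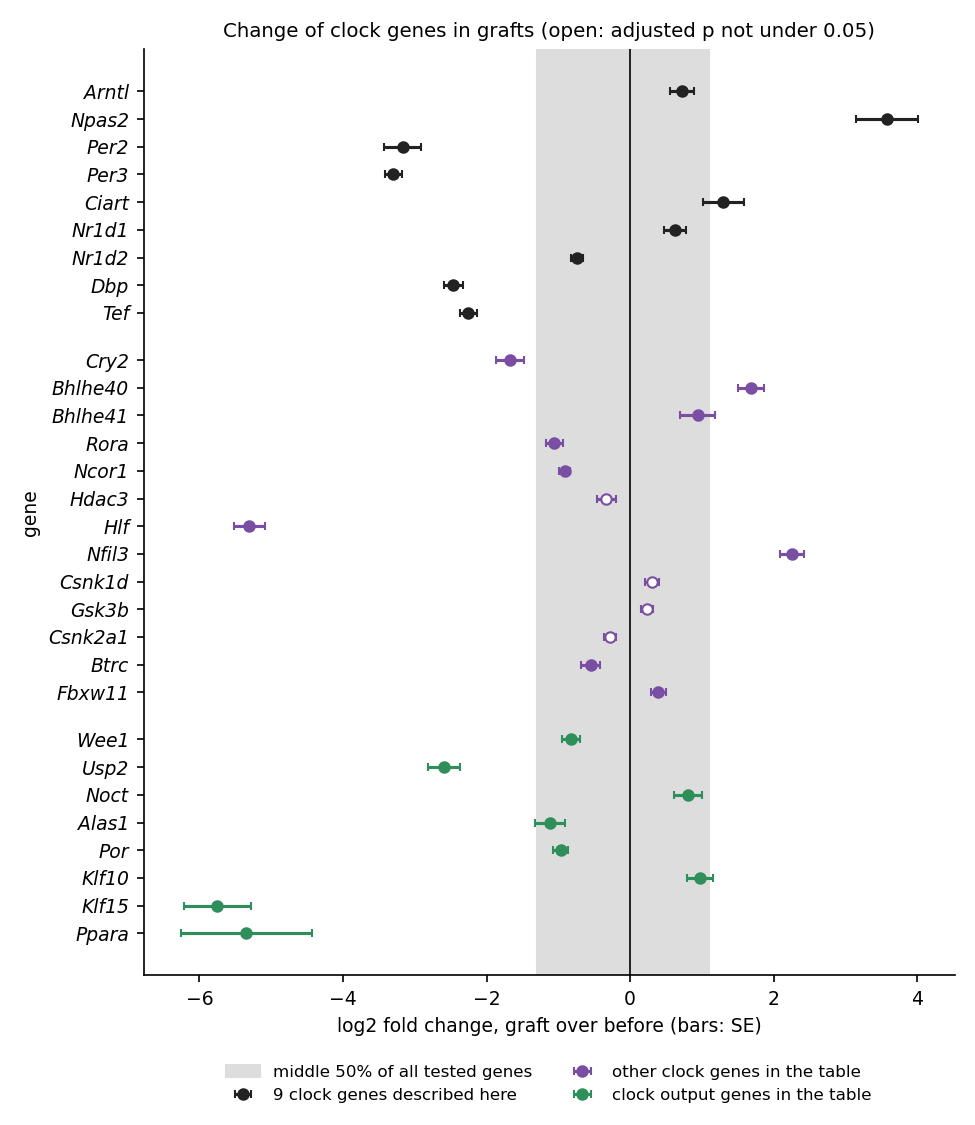
Log2 fold changes (graft over before, bars SE) of the 9 clock genes, 13 other clock genes and 8 clock output genes, with open points for those not called and a grey band for the middle 50% of all tested genes. Npas2 (3.58), Nfil3 (2.26), Bhlhe40 (1.68) and Ciart (1.30) lie above the band and Per2, Per3, Dbp, Tef and Hlf below it, while Arntl, Nr1d1 and Nr1d2 lie inside it, with Arntl and Nr1d1 slightly below 0 in the ribosomal scaling.

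Of 9 clock output genes, 8 were in the table, and 6 were called lower and 2 higher, with a median log2 fold change of -1.04 against 0.28 over all tested genes. With 80.4% of tested genes called, 8 of 8 lies near the background and is not read as a result about outputs. Nor is the median, since the list was chosen with earlier results of these data known. Usp2, a deubiquitinase gene with a strong daily rhythm in many tissues, fell from 495 ± 87.5 to 81.9 ± 19.9 (log2 fold change -2.59, adjusted p = 8.27e-05). Wee1, a cell cycle kinase gene driven through E-boxes, fell from 482 ± 35.8 to 273 ± 23.3 (log2 fold change -0.82, adjusted p = 0.00222). Alas1, the first enzyme of heme synthesis, and Por, the electron donor of cytochromes P450, fell by 1.11 and 0.97 on the log2 scale. Klf15, a metabolic transcription factor gene, went from 1438 ± 333 to 29.5 ± 17.5 (log2 fold change -5.75, adjusted p = 7.39e-05). Ppara, the fatty acid receptor gene, had 128, 251 and 144 before grafting and 0, 16.5 and 2.97 in grafts, and its graft mean of 6.48 was 1.48 without graft replicate 2. Noct, a rhythmic phosphatase gene also called nocturnin, and Klf10 were called higher at 0.81 and 0.97, and at 0.043 and 0.21, not called, in the ribosomal scaling. Without replicate 3 before grafting or graft replicate 3, 1 of these 2 rises was called.

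**Figure D5:**
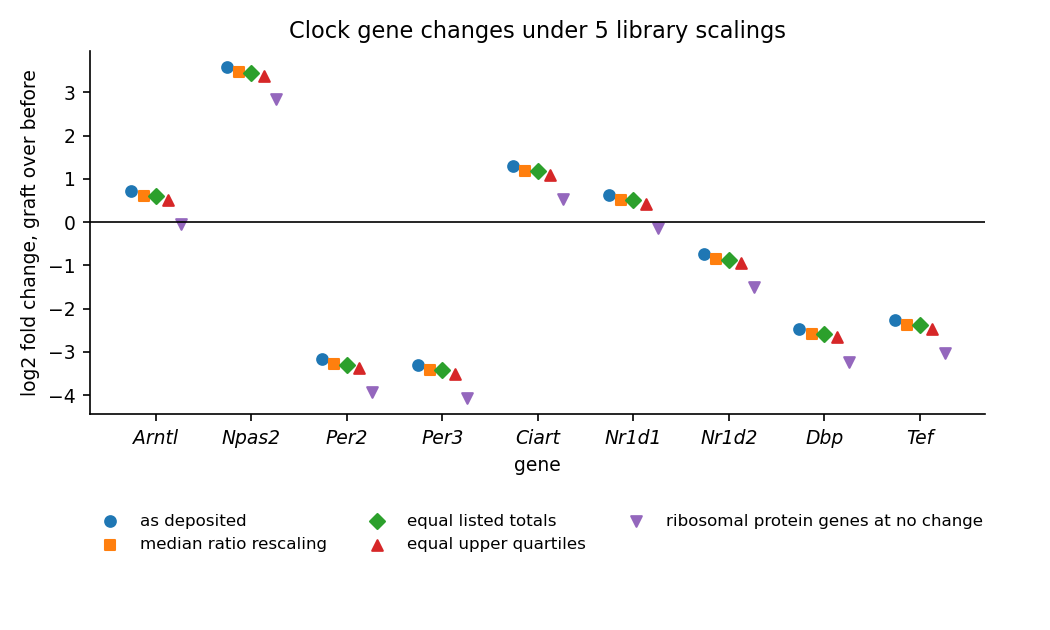
Log2 fold changes of the 9 clock genes under 5 scalings of the libraries (symbols). Per2, Per3, Nr1d2, Dbp and Tef stay below 0 and Npas2 and Ciart above it under all 5, while Arntl and Nr1d1 sit at -0.039 and -0.13 in the ribosomal scaling.

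Levels of cell type markers differed between the same groups. Over all tested genes 80.4% were called (41.3% higher, 39.2% lower), so the counts of markers called are not read as a result by themselves. All 10 adipocyte markers were called lower. Their summed level went from 315109 to 475496 normalized counts before grafting to 6303 to 24521 in grafts, a 28.5-fold fall of the mean. The largest parts of the mean sum of 376178 before grafting were Cfd (118635) and Fabp4 (98427). Single markers fell between 15.2-fold (Fabp4) and 167-fold (Lep). All 8 macrophage markers were called higher, with sums of 21193 to 23984 before and 189062 to 198552 after. All 7 neutrophil markers were higher as well, at 726 to 864 before and 57723 to 92271 after. The 6 T and NK cell markers in the table were called lower, from 2665 to 4787 down to 196 to 538, as were the 4 B cell markers, from 4040.0 to 8370 down to 128 to 340.4. Of 4 endothelial markers 2 were called lower (sums of 7139 to 8444 and 3213 to 4369). Of 5 fibroblast and progenitor markers 3 were higher and 1 lower (38531 to 48269 and 306183 to 458928). Most of that last sum was Col1a1, with a mean of 24562 before grafting and 356037 in grafts, against mean sums of 43713 and 393027. Likewise Lyz2, at means of 15356 and 136652, was most of the macrophage mean sums of 22351 and 194519. No marker in the table was at 0 in all libraries, and the 4 skeletal muscle markers are outside it. The part of cell makeup in the changes of the clock genes was not tested, and in bulk tissue fewer cells of a type and less RNA per cell cannot be told apart.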

How the data were processed

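Per the labels, total RNA was extracted with Trizol and made into Illumina libraries. The deposited values are a signal: for each library, reads per gene over a single size factor applied by the authors, since 100% of them were whole multiples of 1 step (within 0.01 reads, steps 0.970 to 1.01). Per the submitters' processing notes, HISAT2 2.0.5 and Bowtie 0.12.2 and builds mm8 and mm9 were used, but 12029 of 12163 deposited coordinates lay within 1000 bp of GENCODE M21 (GRCm38). Which counter, gene filter and normalization tool made them is not given in the sources used here. The deposited gene lengths (base pairs) gave levels per kb. Values in the 6 per-sample tables equalled those used.

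A model with group as the only term was fitted to log2(value + 1) of the 10854 genes reaching 10 in 3 or more libraries. It was run in limma 3.58.1 under R 4.3.3 (mean trend, robust, two-sided). A check on simulated data used far fewer changed genes and adjusted over tested genes only. It therefore did not test the variance prior or the adjustment over annotated genes. The limma p-values were Benjamini-Hochberg adjusted over 55450 annotated genes, with unlisted genes taken as not differing, and called at 0.05. The table appears limited to genes that differ, and the variance prior rests on it, a limit of every p. An exact permutation test of 3 against 3 could not go below p = 0.1 and was not used. Log2 fold changes are on the log2(value + 1) scale, which understates those of low genes. Values written as N-fold are ratios of group means with no pseudocount.

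The members and lists were chosen with earlier results of these data known. Some listed genes are not reported here and are left out of the list counts. Genes named were the 9 members, the listed clock and output genes in the table, genes overlapping a member's exons and the 3 nearest profiles of Dbp and of Arntl. Overlaps of 193 exonic bases of Tef and 33 of Arntl with antisense genes, and non-exonic overlaps, were not followed further. Alternatives were pseudocount, filter, scaling, block, adjustment, trend (chosen after seeing the data) and leaving out each library. Tables were handled in Python 3.11.15 with pandas 2.3.3.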

Additional observations from a re-analysis of the deposited data

How the results depend on the processing

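Over 17 alternatives, the count of clock genes called lower stayed at 5. The 4 called higher were 2 with equal upper quartiles, 1 with ribosomal protein genes at no change, and 2 to 4 when 1 library was left out. The 4 other clock genes called higher were 2 with median ratios, with equal listed totals, with equal upper quartiles, with ribosomal protein genes at no change or without a mean trend, and 2 to 4 when 1 library was left out, and the 5 called lower were 9 with ribosomal protein genes at no change and 4 without replicate 2 or 3 before grafting. The 2 clock output genes called higher were 1 with equal upper quartiles or without a mean trend, 0 with ribosomal protein genes at no change (limma, where 6 of the 8 were called lower), and 1 to 2 when 1 library was left out. Over all genes, 4479 higher calls became 1910 with ribosomal protein genes at no change. That setting reversed Arntl (-0.039), Nr1d1 (-0.13), Csnk1d (-0.46), Gsk3b (-0.53) and Fbxw11 (-0.37), by construction a shift of all genes downward. The cause of the other changes was not tested.

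No pairing of libraries by the numbers in the titles was seen. After removing group means, same-numbered libraries correlated at -0.157, -0.127 and 0.041, and none of the 3 pairs passed 0.1. Libraries of different number correlated at -0.066 to 0.169. With 3 libraries in each group this check cannot exclude a pairing. The replicate block left all 9 clock genes called, while the other clock genes called higher went from 4 to 2 and all calls from 8730 to 7556. The planned edgeR and DESeq2 alternatives were not run: the deposited values are normalized, and reads recovered from them were not accepted as counts for 2 libraries whose steps lie close to 1. Full depth is unknown, and Npas2 before grafting rests on 10.8 to 12.2 normalized counts in each library.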

Other observations

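Profiles over the 6 libraries that lay nearest to those of 2 clock genes were looked up among 9475 tested genes, leaving out the 9 and numbered or predicted gene models, by the root mean square difference of centred log2 values. For Dbp these were Vtn, the vitronectin gene (0.0734), Nupr1l (0.0803) and Pitpnm2, a phosphatidylinositol transfer protein gene (0.116). Vtn had 556, 457 and 423 normalized counts before grafting and 80.3, 80.5 and 78.1 in grafts. For Arntl they were Nynrin (0.0455), Tbkbp1, a TBK1 binding protein gene (0.0465), and Phf13 (0.0534). Tbkbp1 had 564, 624 and 477 before grafting and 766, 1011 and 923 in grafts. The likeness rests on 6 libraries and mostly on the difference between the groups.

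Spread between grafts differed among the clock genes. Npas2 varied with a coefficient of variation of 56.6% and Per2 of 36.0%, against 4.51% for Nr1d2, 5.81% for Dbp and 6.05% for Ciart. The graft with the least Npas2 (77.3) had the most Per2 (323), the most Per3 (286) and the highest adipocyte marker sum (24521), and the graft with the most Npas2 (268) had the least of each (155, 216 and 6303). In order of rising Npas2, Dbp also went down over the grafts (156, 142 and 140.5). Tef was lowest in the middle graft (1178, 901 and 928), and Nr1d2 went up (1141, 1189 and 1248). Clock genes that were lower in grafts thus did not all share the order of Per2 and Per3. The order was not particular to adipocyte markers. Over the same grafts the neutrophil marker sum went up (57723, 64730 and 92271) and the endothelial sum went down (4369, 3343 and 3213). The macrophage, T and NK cell, B cell, and fibroblast and progenitor sums did not follow the order of Npas2. These orders rest on 3 libraries, and no relation among the genes or to any marker sum was tested.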
